A study of Homo sapiens with 6 samples.

Results

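The IL6 family was examined in U2OS osteosarcoma cells as 10 genes of 19937 in the count table: the ligands *IL6*, *IL11* and *LIF*, the receptor chains *IL6R*, *IL6ST*, *LIFR* and *OSMR*, the kinase *JAK1*, the transcription factor *STAT3* and its feedback inhibitor *SOCS3*. They were picked by gene symbol, and the choice was made on the difference between shSQLE and shControl in these same libraries, with that difference already known. Their values in that contrast are therefore given as a description, with fold changes and errors, and no p-value is printed for them. Where a gene is said to be called or to be under a p threshold, this gives its place in the fit over all genes. It is not a test of the choice. All 10 passed the filter on low counts, as did 12450 genes in all.

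U2OS is an established human osteosarcoma line. The study compared U2OS cells stably expressing a short hairpin RNA against *SQLE* (shSQLE) with cells carrying a nontargeting scramble hairpin (shControl), to find genes that respond to loss of squalene epoxidase, an enzyme of cholesterol synthesis. Both arms received a hairpin from the pGIPZ lentiviral plasmid and were selected with puromycin, so the controls share the vector and the selection. Poly(A) RNA from 3 libraries of each arm was sequenced as paired reads of 151 bp. Which *SQLE* hairpin was used for RNA-seq is not given in the sources used here, and nothing states that the 3 libraries came from separate cultures, so p-values measure only the spread between libraries, which may be technical.

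IL6-type cytokines are secreted helical proteins that signal through a shared transmembrane chain, gp130, encoded by *IL6ST*. IL6 and IL11 first bind their own alpha chains and then assemble gp130 pairs, whereas LIF and oncostatin M bring gp130 together with LIFR or OSMR. Receptor-bound JAK kinases then phosphorylate STAT3, which moves to the nucleus and induces, among others, *SOCS3*, whose protein binds gp130 and JAKs and shuts the signal off. In bone, these cytokines are made by stromal and osteoblastic cells and act on both osteoblast differentiation and osteoclast formation.

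Total counts were between 12212378 and 14393292 per library, and normalized counts below are counts brought to a common library size. *SQLE* itself was at 1349, 1867 and 1924 normalized counts in shControl and at 229, 204 and 219 in shSQLE, in the direction of the labels. Markers of mesenchymal and osteoblast cells summed to between 3142 and 3648 CPM (counts scaled by library size) in shControl and to between 3351 and 3774 in shSQLE, although *SP7*, a defining osteoblast factor, had no count in any library. *VIM* made up most of this sum, at 38665 ± 3524 and 43443 ± 3205 normalized counts. *COL1A2* (means of 2.79 in shControl and 0 in shSQLE), *ALPL* (0.603 and 0.685) and *BGLAP* (1.73 and 2.67) were nearly absent. *COL1A1*, *SPARC* and *RUNX2* had lower means in shSQLE. *COL1A1* was at 164 ± 6.63 and 104 ± 4.13 (log2 fold change −0.65, adjusted p = 0.045, edgeR). This call held in 1 of 6 fits leaving out a library, the one without shControl 1, where 18.3% of all genes were called lower. *SPARC* did not overlap between groups (−0.28, adjusted p = 0.19) and *RUNX2* did (−0.29, adjusted p = 0.52). Leukocyte markers summed to between 1.27 and 1.54 CPM in shControl and 0.457 and 1.09 in shSQLE, with *PTPRC* and *CD3E* at 0 throughout. Endothelial markers, 3 genes, ranged from 0.942 to 1.16 CPM in shControl and from 0.152 to 0.512 in shSQLE, and epithelial markers, 4 genes, from 3.89 to 4.11 and from 4.34 to 5.52. The part of these marker levels in the results was not tested. The shControl 1 library stood apart from shControl 2 and 3, which matters for the receptor chains below. As in any bulk sample, fewer cells expressing a gene and less RNA per cell cannot be told apart.

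*IL6* and *IL11* were the members called lower in shSQLE, and the stretch before their start sites is shown because it carries the letters of factors examined further below. RefSeq promoter windows on GRCh38.p14 were available for 9 of the 10 members, all but *LIF*. The 250 bases before the start are given 5′ to 3′ on the gene's strand, chr7:22726950-22727199 (+) for *IL6* and chr19:55370464-55370713 (−) for *IL11*, with motif matches in capitals.
IL6: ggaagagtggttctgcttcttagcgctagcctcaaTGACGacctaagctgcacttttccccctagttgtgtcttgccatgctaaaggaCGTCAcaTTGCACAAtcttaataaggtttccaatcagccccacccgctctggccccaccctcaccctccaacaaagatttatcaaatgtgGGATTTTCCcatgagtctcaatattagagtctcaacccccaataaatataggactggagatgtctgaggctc
IL11: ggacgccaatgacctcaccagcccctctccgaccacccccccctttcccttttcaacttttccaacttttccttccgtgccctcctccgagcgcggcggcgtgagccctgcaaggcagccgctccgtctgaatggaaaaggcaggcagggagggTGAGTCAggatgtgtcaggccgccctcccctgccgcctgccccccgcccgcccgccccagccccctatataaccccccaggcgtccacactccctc
The letters searched, on both strands, were GGNNTTTCC for NF-kB, TGANTCA for AP-1, TGACG for the cAMP response half-site, TTGCNNAA for C/EBP and TTCNNNGAA for STAT factors. In the *IL6* window, GGATTTTCC stood at positions −72 to −64 before the start, TTGCACAA at −155 to −148, and half-site letters at −215 to −211 and at −162 to −158. The *IL11* window held TGAGTCA at −96 to −90, and no matches overlapped in either window. Among the windows of the other members, AP-1 letters stood in those of *IL6R* and *OSMR*, C/EBP letters in those of *OSMR* and *LIFR*, STAT letters in *LIFR* windows alone, and the half-site in those of *JAK1*, *STAT3* and *SOCS3*. All windows searched spanned 250 bases before and 50 after the start, of which only the bases before it are printed. The AP-1 letters of *IL6R* and *OSMR* and the half-site of *SOCS3* lay after the start. Over all 34943 RefSeq windows of this span, 6.25% held the NF-kB letters, 7.72% AP-1, 24.5% the half-site, 10.5% C/EBP and 7.66% STAT. A match is a description of the letters and not a bound site.

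Among the ligands, *IL6*, the pro-inflammatory cytokine that gives the family its name, lay furthest from shControl. It is a gene of 5 exons at chr7:22725884-22732002 (hg38, plus strand). Its GENCODE span begins upstream of the RefSeq start used above, so the printed window (chr7:22726950-22727199) lies within it. Its normalized counts were 144, 175 and 153 in shControl and 11.8, 13.8 and 11.3 in shSQLE, from 125, 194 and 156 raw counts against 12, 14 and 11. Every shSQLE library was far below every shControl library. The means were 158 ± 16.04 and 12.3 ± 1.33 (SD, n = 3 each), a 12.8-fold lower level and a log2 fold change of −3.67 with a standard error of 0.20. Standard errors here and below were derived from edgeR's F statistic and not estimated directly. DESeq2's standard error for *IL6* was larger, at 0.31. *IL6* remained called lower in all 13 alternative fits, with log2 fold changes from −3.76 to −3.58. Its exons overlap 46 bases of *STEAP1B* and 428 bases of the antisense RNA *IL6-AS1*, both on the opposite strand, and because the strand setting of the counting is not given, reads there cannot be assigned to a strand.

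*IL11*, a cytokine of stromal cells with roles in fibrosis and bone turnover, had the highest level per kb of the ligands and a smaller difference. It lies at chr19:55364382-55370463 (minus strand) with 5 exons. Normalized counts were 672, 636 and 674 in shControl and 448, 476 and 407 in shSQLE. The groups did not overlap, and the shControl libraries were tightly spaced. Means of 661 ± 21.5 and 444 ± 34.7 (SD, n = 3 each) gave a log2 fold change of −0.57 with a standard error of 0.12. The call for *IL11* was lost without the filter on low counts, with the replicate number as a block, and in 5 of 6 fits that left out a library, all except the one without shControl 1, while the fold change stayed between −0.63 and −0.50.

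*LIF*, which sustains stem cells and acts through LIFR, differed least of the ligands. At chr22:30240453-30246759 (minus strand, 3 exons), it had 111, 109 and 101 normalized counts in shControl and 91.1, 101 and 82.2 in shSQLE. The groups touched without overlapping, the lowest control at 101.04 and the highest shSQLE library at 100.53. The means were 107 ± 5.13 and 91.3 ± 9.16 (SD, n = 3 each), and the log2 fold change was −0.23 with a standard error of 0.16. It was not called in any of the fits. Antisense RNAs *LIF-AS1* and *LIF-AS2* overlap 86 and 83 bases of its exons.

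**Figure D1:**
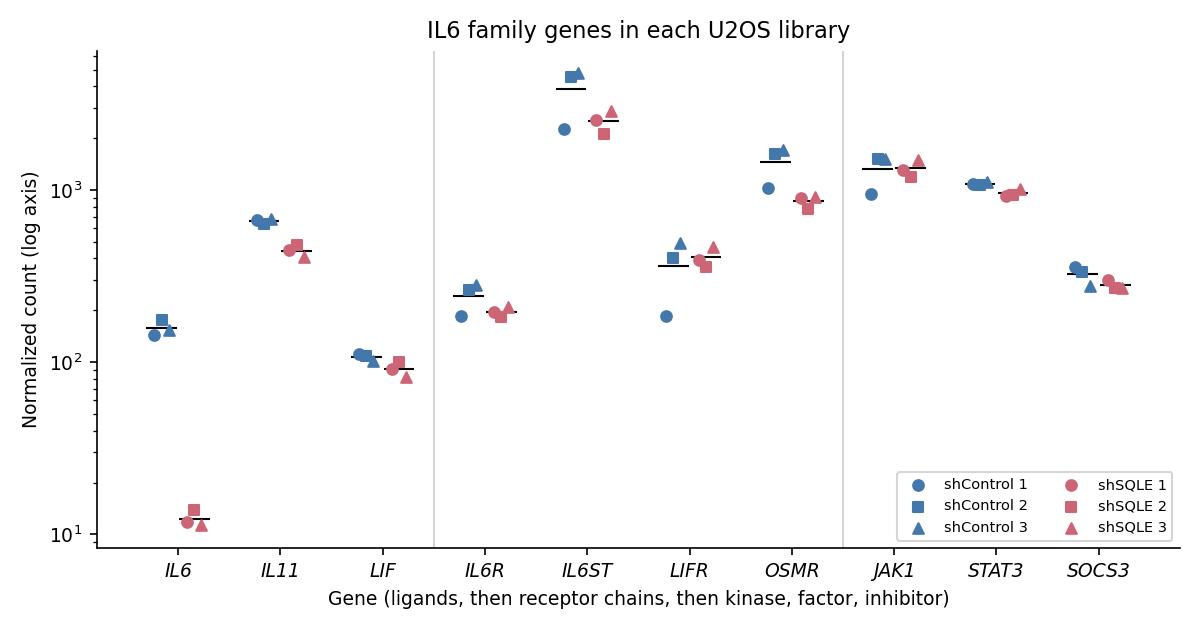
Normalized counts of the 10 genes in each library (log axis), shControl in blue and shSQLE in red, with the group mean as a line. *IL6* lies at 144 to 175 in shControl and at 11.3 to 13.8 in shSQLE, whereas the shControl 1 point of *IL6ST*, *LIFR*, *OSMR* and *JAK1* lies below the other control points.

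The receptor chains were read against a spread within shControl that the ligands did not have. *IL6ST*, the shared signalling chain (chr5:55935095-55995022, minus strand), had 2244, 4509.8 and 4753 normalized counts in shControl and 2537, 2102 and 2883 in shSQLE. The first control library lay among the shSQLE libraries, while the others lay well above them. Means were 3835 ± 1384 and 2507 ± 391 (SD, n = 3 each), with a log2 fold change of −0.61 and a standard error of 0.27.

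*OSMR*, the oncostatin M chain that also pairs with IL31RA, was the only receptor chain whose groups did not overlap. It lies at chr5:38845858-38945596 (plus strand) and shares 229 bases of exon with *RICTOR* on the opposite strand. Normalized counts were 1023, 1617 and 1713 in shControl and 903, 779.6 and 914 in shSQLE. All shSQLE libraries were below the lowest control, which was again shControl 1. The means were 1451 ± 374 and 865 ± 74.5 (SD, n = 3 each), and the log2 fold change was −0.75 with a standard error of 0.20.

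*IL6R*, the alpha chain that binds IL6 (chr1:154405193-154469450, plus strand), had 185, 263 and 282 normalized counts in shControl and 197, 183 and 209 in shSQLE. Only shControl 1 fell within the shSQLE range. Means were 243 ± 51.4 and 196 ± 12.7, a log2 fold change of −0.31 with a standard error of 0.18. *LIFR*, the LIF chain (chr5:38474668-38608354, minus strand), had 185, 402 and 494 in shControl and 393, 357 and 467 in shSQLE. The shSQLE libraries lay inside the control range. Means of 361 ± 159 and 405 ± 56.0 gave a log2 fold change of 0.16 with a standard error of 0.32. Its exons overlap 629 bases of *LIFR-AS1*, and those of *IL6ST* overlap 797 bases of a long noncoding RNA, both on the opposite strand.

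Of the receptor chains, 0 were called by edgeR's quasi-likelihood test, 1 (*OSMR*) had an unadjusted p under 0.05 and the same 1 was called by DESeq2. Without shControl 1, *IL6R*, *IL6ST* and *OSMR* were called lower, at log2 fold changes of −0.47, −0.88 and −0.94, and *LIFR* turned to −0.14 without a call. In that fit 18.3% of all genes were called lower, so these calls were made against a far larger background. DESeq2 called 4.56% of genes lower. A fit with offsets for GC content and transcript length called *IL6ST* (−0.39) and *OSMR* (−0.64) beside the ligands *IL6* and *IL11*, and placed *LIFR* at 0.40. There 8.89% of genes were called lower.

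The position of shControl 1 varied with transcript length, the GC content of genes varying along with it. As a percentage of the mean of shControl 2 and 3, its normalized count was 48.5 for *IL6ST*, 41.3 for *LIFR*, 61.5 for *OSMR* and 67.9 for *IL6R*, all with canonical transcripts between 5526 and 10553 bases. The same share was 87.9 for *IL6*, 103 for *IL11* and 106 for *LIF*, whose transcripts are 1127, 2378 and 3871 bases long. Over all tested genes the median log2 difference of shControl 1 went from 0.49 under 2 kb to −0.46 over 6 kb. *IL6* did not follow this order: the shortest transcript, it stood at −0.19, below the lower quartile of 0.13 of the genes under 2 kb. *STAT3*, at 4921 bases and 99.3%, lay within the quartiles of −0.62 and 0.11 of its length class. The part of this library's length pattern in the receptor values was not tested beyond the fits above.

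**Figure D2:**
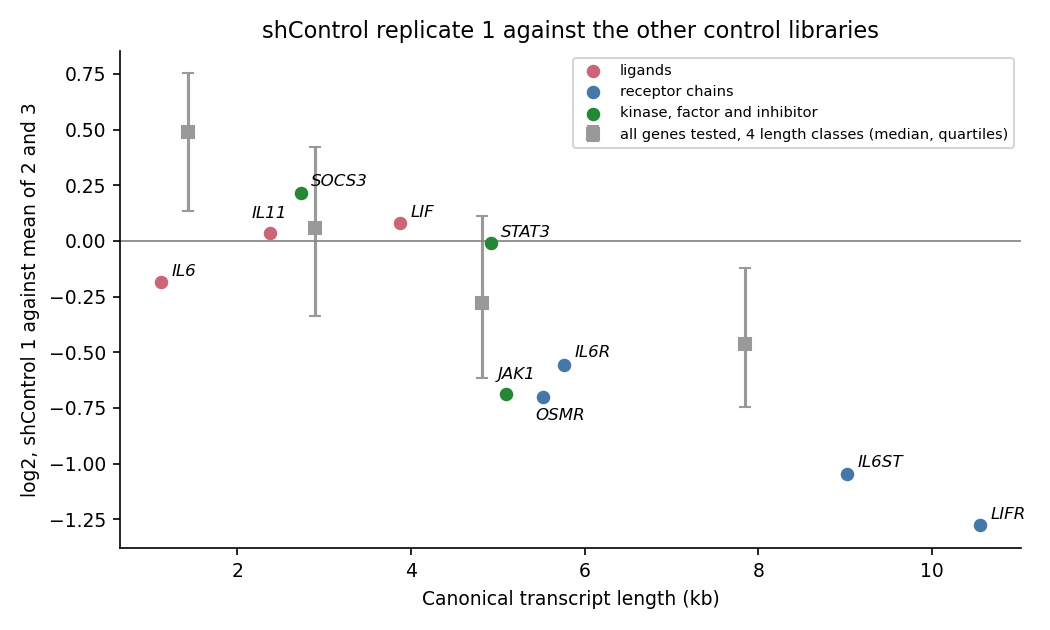
The log2 difference between shControl 1 and the mean of shControl 2 and 3 (y axis) against canonical transcript length in kb (x axis), for the 10 genes by role and, as grey squares with quartile bars, for all tested genes in 4 length classes. *IL6ST* and *LIFR*, the longest transcripts, lie lowest at 48.5% and 41.3% of the other controls, and the ligands lie near 0.

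Below the receptor, *STAT3* had the narrowest spread of all 10 genes among the control libraries relative to its level. *STAT3* (chr17:42313324-42388540, minus strand) had 1081, 1069 and 1107 normalized counts in shControl and 919, 928 and 1018 in shSQLE. The groups did not overlap, and all control libraries were higher. The difference was small, 1086 ± 19.8 against 955 ± 54.2 (SD, n = 3 each), at −0.18 on the log2 scale with a standard error of 0.10, and was called in none of the fits.

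*JAK1*, the kinase bound to gp130 (chr1:64833223-65067754, minus strand), had 942, 1512 and 1520.5 normalized counts in shControl and 1314, 1197 and 1501 in shSQLE. The shSQLE libraries lay between shControl 1 and the other controls. Means of 1325 ± 331 and 1337 ± 153 gave a log2 fold change of 0.01 with a standard error of 0.20, and the sign changed to −0.18 without shControl 1 and to −0.037 when only library size was used for scaling. Its exons overlap *RAVER2* by 10 bases and *LINC01359* by 647.

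*SOCS3* (chr17:78356778-78360077, minus strand), the inhibitor that STAT3 induces, had 357, 336 and 279 normalized counts in shControl and 299, 270.1 and 269 in shSQLE. The highest shSQLE library was above the lowest control. With means of 324 ± 40.4 and 279 ± 16.7, the log2 fold change was −0.21 and its standard error 0.14. Of *JAK1*, *STAT3* and *SOCS3*, 0 were called by edgeR or by DESeq2, and 0 had an unadjusted p under 0.05.

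In total, 2 of the 10 members (*IL6* and *IL11*) were called lower by edgeR's quasi-likelihood test at a Benjamini-Hochberg adjusted p under 0.05, where 2.84% of the 12450 tested genes were. Called higher were 0 members by edgeR, by DESeq2 and at an unadjusted p under 0.05, against a background of 0.369%. The groups did not overlap for 5 members in the lower direction (12.1% of all genes) and for 0 in the higher direction (10.0%). Because the genes were chosen on this contrast, nothing is read from these counts.

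**Figure D3:**
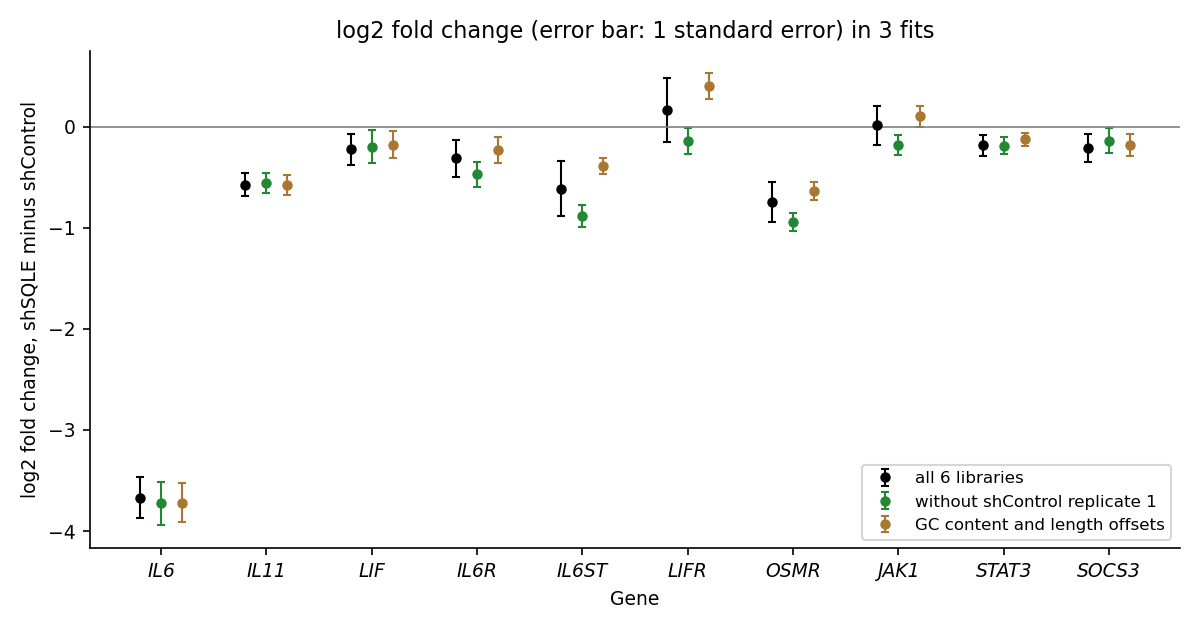
Log2 fold changes of the 10 genes, shSQLE minus shControl, with standard errors as bars, ordered by role, for all libraries (black), without shControl 1 (green) and with GC content and length offsets (brown). *IL6* lies at −3.67, the other genes lie between −0.75 and 0.16 with all libraries, and the receptor chains lie lower without shControl 1.

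Ligands and receptor chains were then compared as groups. The median log2 fold change was −0.57 over the 3 ligands and −0.46 over the 4 receptor chains, where the median over all tested genes was −0.01. The gap of −0.11 changed sign, to 0.12 without shControl 1 (−0.56 for ligands and −0.68 for receptor chains) and to 0.03 without shSQLE 3 (−0.50 and −0.52). Within each library, the mean log2 CPM of the ligands minus that of the receptor chains was −1.25, −2.02 and −2.23 in shControl and −2.97, −2.65 and −3.21 in shSQLE. The means were −1.83 ± 0.51 and −2.94 ± 0.28 (SD, n = 3 each), a difference of −1.11. All shSQLE libraries were lower on this score, and of the 3 ligands *IL6* had by far the largest difference.

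Ratios of counts within a library do not depend on the scaling between libraries. *IL6* per *IL11* was 0.215, 0.276 and 0.227 in shControl and 0.0262, 0.0290 and 0.0278 in shSQLE. The shSQLE values were almost equal to each other and far below all controls. *IL11* per *LIF* was 6.06, 5.86 and 6.67 in shControl and 4.92, 4.74 and 4.95 in shSQLE, again without overlap. Group means were 0.239 ± 0.0324 and 0.0277 ± 0.0014 for the first ratio and 6.20 ± 0.422 and 4.87 ± 0.117 for the second (SD, n = 3 each).

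For the long transcripts, pairs were set against each other after the values had been seen, to lessen the effect of shControl 1. *OSMR* per *JAK1*, whose transcripts are 5526 and 5092 bases long, was 1.09, 1.07 and 1.13 in shControl and 0.687, 0.652 and 0.609 in shSQLE. In this ratio shControl 1 lay between the other controls, and the groups stood well apart. *IL6R* per *JAK1* was 0.196, 0.174 and 0.185 in shControl and 0.150, 0.153 and 0.139 in shSQLE, also without overlap. *IL6ST* per *LIFR*, the 2 longest transcripts, was 12.1, 11.2 and 9.61 in shControl and 6.46, 5.89 and 6.18 in shSQLE. *JAK1* per *LIFR* overlapped, at 5.10, 3.76 and 3.08 against 3.35, 3.35 and 3.22. *OSMR* per *IL6ST* overlapped as well, at 0.456, 0.359 and 0.360 against 0.356, 0.371 and 0.317. As the pairs and the genes were chosen with these values known, the ratios are a description, and a ratio that differs does not say which gene of the pair did.

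**Figure D4:**
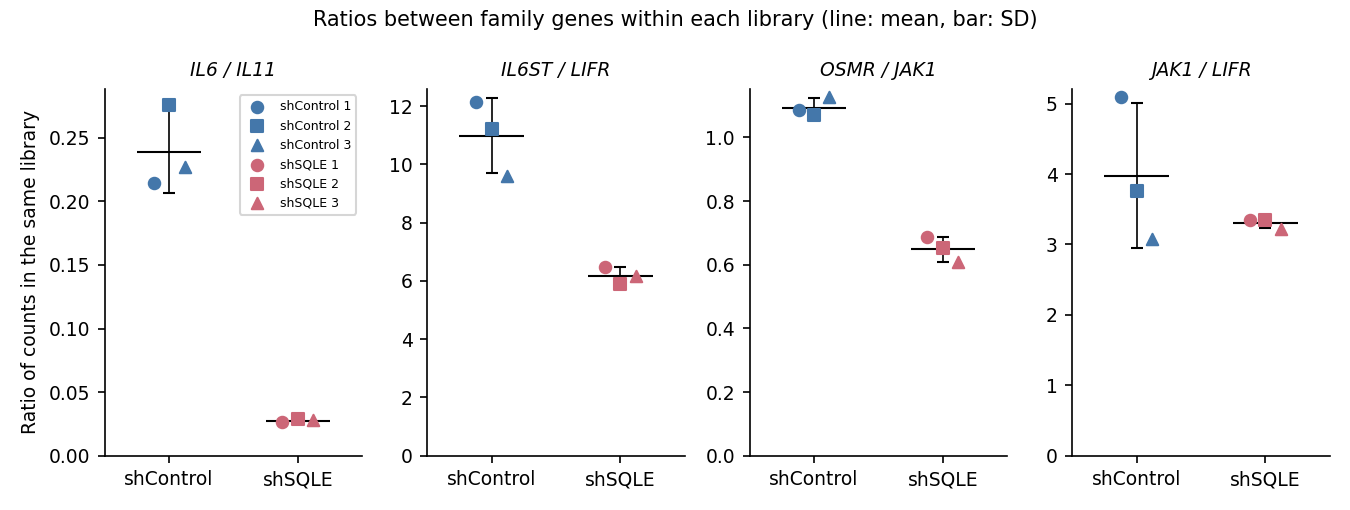
Ratio of the counts of a pair of genes in the same library (y axis, from 0) for shControl and shSQLE, with a point per library, the mean as a line and the SD as a bar. *IL6* per *IL11*, *IL6ST* per *LIFR* and *OSMR* per *JAK1* are lower in every shSQLE library than in any shControl library, and *JAK1* per *LIFR* overlaps.

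The order of the levels was taken per length, as CPM per kb of the canonical transcript. In shControl the order began with *IL6ST* at 31.5 ± 11.4, *IL11* at 20.6 ± 0.671, *OSMR* at 19.5 ± 5.01, *JAK1* at 19.3 ± 4.83 and *STAT3* at 16.4 ± 0.298 (SD, n = 3 each). It went on with *IL6* at 10.4 ± 1.06 and *SOCS3* at 8.78 ± 1.10, and ended with *IL6R* at 3.13 ± 0.661, *LIFR* at 2.53 ± 1.12 and *LIF* at 2.05 ± 0.0983. Only the steps from *STAT3* to *IL6* and from *SOCS3* to *IL6R* separated neighbours whose libraries did not overlap.

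In shSQLE the levels per kb were 20.6 ± 3.21 for *IL6ST*, 19.5 ± 2.23 for *JAK1*, 14.4 ± 0.817 for *STAT3*, 13.8 ± 1.08 for *IL11* and 11.6 ± 1.00 for *OSMR*. Lower down stood *SOCS3* at 7.58 ± 0.454, *LIFR* at 2.85 ± 0.394, *IL6R* at 2.53 ± 0.163, *LIF* at 1.75 ± 0.175 and *IL6* at 0.808 ± 0.0875. *IL6* thus moved from rank 6 to rank 10, below *LIF*, and the neighbours that overlapped were *IL6ST* and *JAK1*, *STAT3* and *IL11*, and *LIFR* and *IL6R*. With the length of all annotated exons instead, *IL6* was at rank 7 in shControl and at rank 10 in shSQLE.

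The genes whose log2 CPM tracked a ligand most closely over the 6 libraries were named for each, as a description that mostly follows the difference between the groups. For *IL6* they were *HERC6*, *PDIA4*, *COL5A1*, *IFI44* and *SPTB*, with Pearson's r of 0.997 to 0.998, and 619 genes had an r over 0.9. *HERC6* and *IFI44* are interferon-inducible genes, *PDIA4* is a disulfide isomerase of the endoplasmic reticulum and *COL5A1* a fibrillar collagen. *HERC6* went from 467 ± 10.7 to 118 ± 2.47 normalized counts and *PDIA4* from 5699 ± 63.1 to 2538 ± 77.4 (SD, n = 3 each). For *IL11* the closest were *ATF3*, *OSBP2*, *ABCG1*, *SLC33A1* and *DERL2*, with r of 0.991 to 0.993. *ATF3* is a stress-induced transcription factor, *ABCG1* a sterol exporter and *DERL2* a component of endoplasmic reticulum degradation. *ABCG1* went from 66.5 ± 12.4 to 3.96 ± 2.58. For *LIF* they were *COL22A1*, *COX20*, *AOC2*, *DCP1B* and *TK2*, with r of 0.976 to 0.990. Between members, r was 0.97 for *IL6* with *IL11*, 0.995 for *IL6R* with *IL6ST* and 0.95 for *LIFR* with *JAK1*.

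The rest of the pathway was read from 8 lists holding 81 other genes, of which 70 passed the filter. With edgeR, 4 were lower (*SOCS2*, *ATF3*, *NFKBIZ* and *ZFP36L2*) and 3 higher (*MYC*, *JUN* and *IL1A*) at an adjusted p under 0.05, beside 2.84% and 0.369% of all genes, and 21 had an unadjusted p under 0.05, as had 1832 of all 12450. The groups did not overlap for 14 genes in the lower direction (12.1% over all genes) and 8 in the higher (10.0%), and the median log2 fold change was −0.09. As the lists were chosen with earlier results of these data known, these counts and those of each list below are a description.

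Of the 8 other ligands, 3 passed the filter and 0 were called by edgeR, by DESeq2 or at an unadjusted p under 0.05. *OSM*, *IL27* and *IL31* had no count in any library. *CLCF1*, a ligand that uses gp130 and LIFR, was at 231 ± 12.8 normalized counts in shControl and 235 ± 16.9 in shSQLE. *CNTF*, the ciliary neurotrophic factor gene, was at 9.96 ± 4.98 and 10.6 ± 3.45 (SD, n = 3 each).

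Among the other receptor chains and the sheddases that release soluble IL6R, 0 of 5 tested genes were called by edgeR, and 1, *IL31RA*, by DESeq2 and at an unadjusted p under 0.05. *IL31RA*, the partner of OSMR, had 355, 600.5 and 650.4 normalized counts in shControl and 287, 247 and 307 in shSQLE. Its pattern across libraries resembled that of *OSMR*, with shControl 1 nearest to the shSQLE libraries. The log2 fold change was −0.93 with a standard error of 0.23 (adjusted p = 0.083, edgeR), and without shControl 1 it was −1.16 (adjusted p = 1.2e-05). Of the 6 fits that left out a library, only that 1 called *IL31RA*, and it called 18.3% of all genes lower. *ADAM17*, a sheddase of IL6R, was at 418 ± 63.9 and 350 ± 21.4, and *IL27RA* at 231 ± 63.5 and 256 ± 27.5.

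Of the other kinases, STATs and adaptors, 9 of 10 were tested and 0 were called by edgeR or DESeq2, with 2 at an unadjusted p under 0.05. *JAK2*, another kinase of the gp130 complex, was at 245 ± 61.7 normalized counts in shControl and 149 ± 27.6 in shSQLE. Its log2 fold change was −0.72 (adjusted p = 0.17, edgeR), and −0.91 without shControl 1 (adjusted p = 0.00088). Only that 1 of the 6 fits leaving out a library called *JAK2*, and it called 18.3% of all genes lower. The adaptor *SHC1* was at 746 ± 88.6 and 607 ± 22.02, and the exchange factor *SOS1* at 558 ± 153 and 433 ± 58.1.

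Of 13 inhibitors tested, edgeR called 1 lower and 0 higher, beside 2.84% and 0.369% of all genes. *SOCS2*, a STAT5-induced inhibitor of growth hormone signalling, had 293, 335 and 340.4 normalized counts in shControl and 147, 123 and 162 in shSQLE. All shSQLE libraries were below all controls, with a log2 fold change of −1.16 and a standard error of 0.15 (adjusted p = 0.0074, edgeR). The call held in 4 of 6 fits that left out a library, and was lost without shSQLE 1 and without shSQLE 2. *SOCS5* (548 ± 161 and 426 ± 52.2) and *SOCS6* (367 ± 106 and 295 ± 24.8) overlapped between groups and were not called.

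Of 14 STAT3 targets tested, edgeR called 1 higher and 0 lower, beside 0.369% and 2.84% of all genes. At an unadjusted p under 0.05, 5 were lower and 2 higher, and DESeq2 called 2 lower and 2 higher. The median log2 fold change of the list was −0.01. *MYC*, a growth-promoting transcription factor with many inputs beside STAT3, was at 381, 354 and 337 normalized counts in shControl and at 571, 591 and 545 in shSQLE, higher in every shSQLE library. Its log2 fold change was 0.67 with a standard error of 0.12 (adjusted p = 0.023, edgeR). The call held in 1 of 6 fits that left out a library, the one without shControl 1. That fit called 1964 genes higher, against 46 with all libraries. *JUNB* was at 902 ± 199 and 577 ± 67.7 with a log2 fold change of −0.64 (adjusted p = 0.12), and the kinase gene *PIM1* at 177 ± 17.0 and 247 ± 2.11 with 0.48 (adjusted p = 0.12). The acute-phase genes *SERPINA3* and *LBP* had no counts.

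Of 12 factors known to act on the *IL6* gene, all tested, edgeR called 2 lower and 1 higher, beside 2.84% and 0.369% of all genes. *ATF3*, a repressor and activator of the ATF/CREB family, had 214, 171 and 199 normalized counts in shControl and 71.5, 67.0 and 46.3 in shSQLE. The groups were far apart, with a log2 fold change of −1.65 and a standard error of 0.20 (adjusted p = 0.005, edgeR), called in 6 of 6 fits that left out a library. *NFKBIZ* encodes a nuclear IkB protein needed for *IL6* induction through NF-kB. It had 418, 678 and 654 in shControl and 280.0, 183 and 190.1 in shSQLE, a log2 fold change of −1.42 with a standard error of 0.24 (adjusted p = 0.021). Its call held in 2 of 6 such fits, those without shControl 1 and without shSQLE 1. The part of these factors in the *IL6* difference was not tested.

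*JUN*, the AP-1 subunit, was higher, at 2713, 2849.5 and 2778 normalized counts in shControl and 4087, 4074 and 3779 in shSQLE. The log2 fold change was 0.52 with a standard error of 0.09 (adjusted p = 0.027, edgeR). The call held in 1 of 6 fits, that without shControl 1, which called 1964 genes higher.

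Factors that act on *IL6* mRNA decay gave 1 call among 9, on the lower side, where 2.84% of all genes were called. *ZFP36L2*, which binds AU-rich elements and promotes decay, had 2327, 2622 and 2617 normalized counts in shControl and 1598, 1437 and 1655 in shSQLE, lower in every shSQLE library. Its log2 fold change was −0.69 with a standard error of 0.11 (adjusted p = 0.016, edgeR). Among the 6 fits that left out a library, the call held only without shControl 1, where 18.3% of all genes were called lower. *ZC3H12A*, the Regnase-1 nuclease gene, was at 428 ± 84.4 and 291 ± 56.7 and the stabilizing factor *ELAVL1* at 1631 ± 33.9 and 2015 ± 38.7, with adjusted p of 0.24 and 0.17.

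Of the inducers of *IL6* and their receptors, 5 of 6 were tested and 1 was called, on the higher side, where 0.369% of all genes were called. *IL1A*, a cytokine that drives *IL6* through NF-kB, was higher in shSQLE, at 708, 819 and 849.5 normalized counts in shControl and 2009, 1826 and 1828 in shSQLE. The log2 fold change was 1.25 with a standard error of 0.12 (adjusted p = 0.0019, edgeR), and it was called in 6 of 6 fits that left out a library. *IL1R1*, the receptor for this cytokine, was at 32.3 ± 14.1 and 11.98 ± 2.699 with a log2 fold change of −1.43 (adjusted p = 0.11), and *TNFRSF1A* at 1696 ± 247 and 1593 ± 101.

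**Figure D5:**
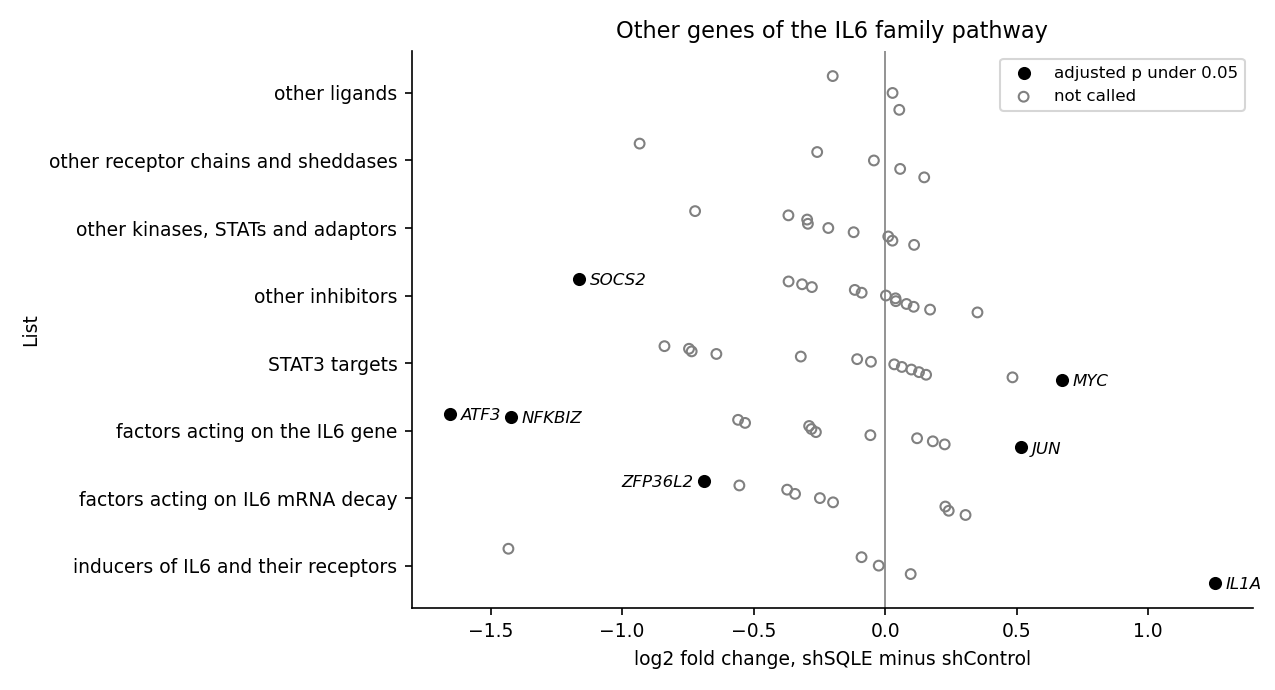
Log2 fold changes (shSQLE minus shControl, x axis) of the 70 tested pathway genes in their 8 lists, with filled points for an edgeR adjusted p under 0.05. *ATF3*, *NFKBIZ*, *SOCS2* and *ZFP36L2* are filled on the lower side and *IL1A*, *MYC* and *JUN* on the higher side, and the lists of other ligands, receptor chains and kinases hold no filled point.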

How the data were processed

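RNA-seq of 6 U2OS libraries was used, 3 shSQLE and 3 shControl, grouped by the sample labels. Raw counts of reads on each gene were deposited, made by the authors with featureCounts 2.0 after STAR 2.7.9a alignment (genome hg38) of reads cleaned by fastp 0.20.0. Annotation release, strand setting and handling of multi-mapping reads are not given in the sources used here. Totals were 12212378 to 14393292 counts per library. Precision depended on these totals and on the spread between libraries, and intervals were not computed. Counts were tested with edgeR 4.0.16 (quasi-likelihood test, filterByExpr, TMM, condition as the only term, Benjamini-Hochberg adjustment over 12450 genes) in R 4.3.3 with limma 3.58.1, and the script was tested on simulated data. A gene was called at an adjusted p under 0.05. Alternatives were DESeq2 1.42.0, RLE and library size scaling, other filters, a replicate block, GC content and length offsets fitted with mgcv 1.9.3, and leaving out each library. Log2 CPM used a prior count of 2. Gene positions and lengths came from GENCODE 44, promoters from RefSeq. The members and lists were chosen with earlier results of these data known. Named are all members, *SQLE*, for each pathway list the called genes and, where fewer than 3, those of smallest p up to 3, and for each ligand the 5 genes with the highest correlation; a gene this rule names among the other ligands is not reported here. Markers were read as summed CPM.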

Additional observations from a re-analysis of the deposited data

How the results depend on the processing

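Direction and call were kept by *IL6*, *LIF*, *STAT3* and *SOCS3* under all 13 alternatives. Over all genes, DESeq2 called 568 lower and 162 higher, the GC content and length offsets 1107 and 1412, and fits leaving out a library 101 to 2300 lower and 4 to 1964 higher, the upper ends all without shControl 1. Members called lower numbered 1 without the low-count filter and with the replicate block, 3 with DESeq2, 4 with the offsets and 1 to 5 when a library was left out. Pathway genes called lower numbered 8 with DESeq2, 14 with the offsets and 1 to 22 when a library was left out, and those called higher 1 with the replicate block (*MYC* and *JUN* were lost), 5 with the offsets and 1 to 10. Signs changed for *LIFR* (−0.14 to 0.47 over fits leaving out a library) and *JAK1* (−0.037 by library size only, −0.18 without shControl 1 and −0.06 without shSQLE 3, up to 0.14). The gap between the medians of ligands and receptor chains, −0.11, ran from −0.25 to 0.12 when a library was left out. The offsets moved the median log2 fold change of all genes from −0.01 to 0.05. Deviations of same-numbered libraries from their group means correlated at 0.14, −0.43 and 0.54. With 3 libraries per group these deviations depend on each other, so whether the replicate numbers pair the libraries cannot be decided. The cause of these changes was not tested. With 11 to 14 raw counts, the shSQLE level of *IL6* is limited by depth.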

Other observations

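Other class I cytokine receptors, a list of 18 genes written after the data had been seen, had 8 members that passed the filter. By edgeR's quasi-likelihood test, 3 were lower in shSQLE and 0 higher (0 also by DESeq2 and at an unadjusted p under 0.05), where 2.84% of all tested genes were lower and 0.369% higher. The median log2 fold change over the 8 was −0.59, and as the list was written with these values known its count is a description. *IL13RA2*, a decoy receptor for IL13, had 296, 232 and 256 normalized counts in shControl and 87.1, 77.9 and 91.5 in shSQLE. Its log2 fold change was −1.61 (adjusted p = 0.0021) and it was called in 6 of 6 fits that left out a library. *IL7R*, the IL7 and TSLP receptor chain, had 809, 1402 and 1417 in shControl and 422, 434 and 514 in shSQLE, with shControl 1 the lowest control. Its log2 fold change was −1.41 (adjusted p = 0.016), held in 2 of 6 such fits. *IL15RA* was at 233 ± 21.7 and 146 ± 2.51 (SD, n = 3 each) with a log2 fold change of −0.68 (adjusted p = 0.041), held in 1 of 6 such fits and lost with the replicate block. Not called were *LEPR* (−0.69), *IL13RA1* (−0.50), *EPOR* (−0.30), *IL4R* (−0.21) and *GHR* (0.03). *IL2RG*, *CSF2RB* and *IL12RB1*, chains typical of lymphoid and myeloid cells, had no count in any library.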
